A study of Mus musculus with 6 samples.

Results

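The genes described here encode molecular chaperones, their cochaperones, peptidyl-prolyl isomerases and protein disulfide isomerases, measured in mouse striatum. They were chosen by gene symbol: probe sets whose array annotation names exactly 1 gene with a symbol starting with Hspa, Hspb, Hspd, Hspe, Hsph, Hsp9, Dnaj or Fkbp, with Hsf, Pdia, Cct or Bag and a number, with Ppi and a letter (cyclophilins), or the symbols Tcp1, Cryab, Calr, Canx, Stip1, St13 or Stub1. The rule uses no measured value. It found 124 of 12422 probe sets and 89 of 8251 named genes. By textbook location, 59 of the 89 proteins work in the cytosol or nucleus, 19 in the endoplasmic reticulum (ER), 9 in mitochondria and 2 on other membranes. Of a panel of 32 chaperone genes described in full, 29 were measured; Hsp90ab1, Hsf1 and Ppia had no probe set naming them alone and were not analysed here.

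Total RNA from the striatum of 6 female C57BL/6 mice aged 12 months was hybridised to Affymetrix arrays, 1 array per mouse. Wild-type mice carry the replicate numbers 4, 5 and 6, and Hdh4/Q80 mice, their mutant littermates, the numbers 7, 8 and 9. In the Hdh4/Q80 line the CAG repeat of the animal's own huntingtin gene has been lengthened, and with it the polyglutamine tract of the protein; the sources used here do not state whether 1 or both alleles were altered. The comparison asks whether chaperone transcripts differ between the genotypes. Values are log2 expression levels per probe set, and per-mouse values are given in the order of wild-type mice 4, 5 and 6, then Hdh4/Q80 mice 7, 8 and 9.

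Chaperones hold unfolded proteins and help them reach or regain their native form. Hsp70 proteins bind and release short unfolded stretches in a cycle driven by ATP, in which J-domain proteins deliver the substrate and trigger hydrolysis, Hsp110 proteins and BAG cochaperones release the nucleotide, and the adaptor Stip1 passes clients on to Hsp90. In the ER the same cycle is run by Hspa5, beside the lectin chaperones that fold glycoproteins and the disulfide isomerases that pair cysteines; in mitochondria it is run by Hspa9 together with the Hspd1 and Hspe1 chaperonin. Several of these genes are induced by heat shock factors when proteins misfold in the cytosol, or by the unfolded protein response when they misfold in the ER. Polyglutamine proteins misfold and aggregate, and cytosolic Hsp70, Hsp40 and CCT proteins are known to limit that aggregation in model systems.

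Promoter sequence was compared first, because the rule did not use its letters. RefSeq windows of 300 bases (250 before to 50 after the start site, GRCm38.p6) were found for 75 of the 89 genes. The ER stress response element, searched on both strands as CCAAT and CCACG with 9 bases of any kind between them, was present in 6 of 18 ER genes and in 0 of 49 cytosolic and nuclear genes, 0 of 7 mitochondrial genes and 0 of 1 gene of other membranes. Over all 27025 genes with a window, 0.137% held it. The element was searched because it is known from ER chaperone genes, so its presence among them is no independent finding. The heat shock element was searched on both strands as GAA, TTC and GAA with 2 bases of any kind between neighbours. It was present in 4 of the 75 genes (Hsph1, Dnajb6, Hspd1 and Hspe1), or 5.33%, against 0.662% of all genes. Hspd1 and Hspe1 share their matches. This element too was searched because it is known from heat shock genes, so its share here is no independent finding. These motifs are matches of letters, and the values of the genes that carry them are given with each group below. The 6 ER promoters and the promoter of Hspe1 are shown 5′ to 3′ on the gene's own strand, all ending before the start site, with the motif in capitals and 20 bases on each side.
Hspa5, chr2:34772005-34772063, plus strand: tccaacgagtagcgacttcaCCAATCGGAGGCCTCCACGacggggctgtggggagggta
Hsp90b1, chr10:86705513-86705676, minus strand: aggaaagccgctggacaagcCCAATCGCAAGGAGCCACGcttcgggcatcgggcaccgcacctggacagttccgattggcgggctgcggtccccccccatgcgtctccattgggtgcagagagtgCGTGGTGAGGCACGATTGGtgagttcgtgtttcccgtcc
Pdia6, chr12:17266471-17266529, plus strand: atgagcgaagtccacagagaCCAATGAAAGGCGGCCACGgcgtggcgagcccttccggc
Dnajc3, chr14:118937807-118937865, plus strand: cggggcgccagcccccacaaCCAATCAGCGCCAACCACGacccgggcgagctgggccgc
Canx, chr11:50325780-50325838, minus strand: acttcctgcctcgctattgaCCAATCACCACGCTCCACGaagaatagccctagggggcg
Calr, chr8:84847055-84847113, minus strand: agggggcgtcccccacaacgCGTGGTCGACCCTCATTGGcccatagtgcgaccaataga
Hspe1, chr1:55088039-55088096, plus strand: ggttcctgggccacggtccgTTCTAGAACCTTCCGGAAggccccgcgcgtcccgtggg
Hsp90b1 held 2 matches, on opposite strands, and the others of the ER group 1 each. The capitals of Hspe1 cover 2 overlapping heat shock elements. Hspd1, transcribed the other way from the same region, held the same 2 matches (chr1:55088059-55088076), read from the opposite strand.

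No chaperone gene passed the test of genotype. With limma and Benjamini-Hochberg adjustment over all probe sets, 0 of the 124 chaperone probe sets reached an adjusted p under 0.05, as did 0% of all 12422, and the smallest adjusted p among the chaperones was 0.857. Of the 124 probe sets 7 were lower and 1 higher at an unadjusted p below 0.05, where 2.21% and 2.9% of all probe sets were. Counting each gene by its brightest probe set, 6 genes passed that limit on the lower side (Hspa2, Stip1, Dnajb5, Dnajb11, Pdia6 and Dnajc15) and 1 on the higher (Canx). That is 6.74% and 1.12% of the 89 genes, where 2.13% and 2.17% of all 8251 genes were that far lower and higher. Hspa2, Dnajb11 and Dnajc15 were read by dim probe sets, with mean levels above those of about 32.05%, 30.18% and 35.43% of probe sets. The 3 mutants lay entirely below the 3 wild types for 9 chaperone genes (10.1%, against 5.22% of all genes) and entirely above them for 2 (2.25%, against 5.87%). The count of 6 moved with single animals: without Hdh4/Q80 mouse 8 it was 2 (1.41% of all genes), and without wild-type mouse 4 it was 4 (1.36%). Without wild-type mouse 6 it was 3 (0.776%), and without Hdh4/Q80 mouse 7 or 9 it was 11 (3.99%) or 15 (4.38%). Without wild-type mouse 5 it was 8 (1.53%), and without both wild-type mouse 4 and Hdh4/Q80 mouse 8 it was 2 (1.62%). On the higher side the count was 1, 0 and 0 without wild-type mouse 4, 5 or 6 (1.65%, 1.13% and 0.861% of all genes) and 2, 0 and 1 without Hdh4/Q80 mouse 7, 8 or 9 (3.18%, 2.06% and 3.96%). It was 0 without both mice 4 and 8 (2.53%). Array weights moved several of these differences by over 1.5 times: Dnajb5 from -0.21 to -0.08, Dnajb11 from -0.30 to -0.18, Pdia6 from -0.18 to -0.11 and Canx from 0.20 to 0.13.

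**Figure D1:**
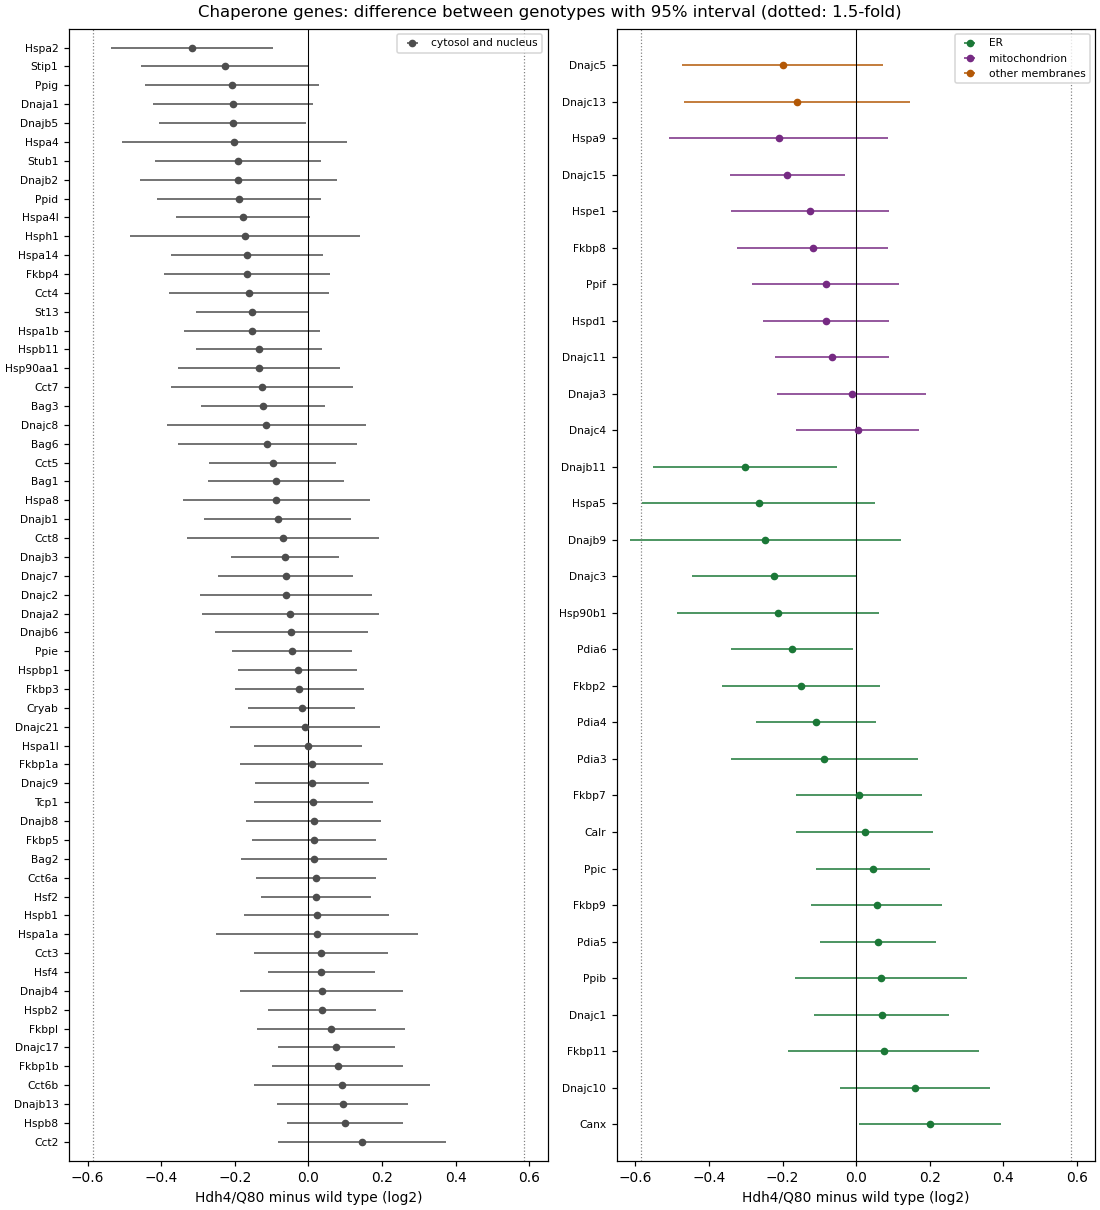
Difference between Hdh4/Q80 and wild type (log2, points) with its 95% interval (lines, limma) for each of the 89 chaperone genes on its brightest probe set, with cytosolic and nuclear genes on the left and the other compartments on the right. The points run from -0.32 (Hspa2) to 0.20 (Canx), and only the interval of Dnajb9 reaches the dotted line of a 1.5-fold change.

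The differences were small. On the brightest probe sets they ran from -0.32 for Hspa2 to 0.20 for Canx, and the 95% intervals of 88 genes lay wholly within 1.5-fold; the exception was Dnajb9. These limits hold on the scale of the arrays. In tissue RNA, fewer cells of a type and less RNA per cell cannot be told apart.

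More chaperone genes lay below 0 than above it. Of the 89 genes 57 (64%) had a negative difference, against 53.3% of all genes, and the median was -0.06 against -0.01. Among cytosolic and nuclear genes 38 of 59 were below 0 (median -0.06), among mitochondrial genes 8 of 9 (median -0.08), and among ER genes 9 of 19 (median 0.01). The sign of the ER median was not stable: it was -0.10 without the dimmest 40% of probe sets, where the mitochondrial median was -0.08, and -0.05 with array weights. It was -0.03 after quantile normalization, -0.02 after cyclic loess, -0.04 without wild-type mouse 5 and -0.04 without Hdh4/Q80 mouse 8. The difference between compartments was not tested. Without both wild-type mouse 4 and Hdh4/Q80 mouse 8, a setting chosen after the values were seen, 47 of the 89 were below 0 and the 3 medians were -0.01, 0.01 and -0.01 in the same order. Brightness also moved with the direction. When genes were cut by mean level into 4 equal bins, 39.8% of all genes and 6 of 14 chaperones in the dimmest bin lay below 0, whereas in the brightest 66.3% of all genes and 24 of 31 chaperones (77.4%) did. The median difference in the brightest bin was -0.04 for all genes and -0.11 for the chaperones. The part of brightness in the direction was not tested.

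**Figure D2:**
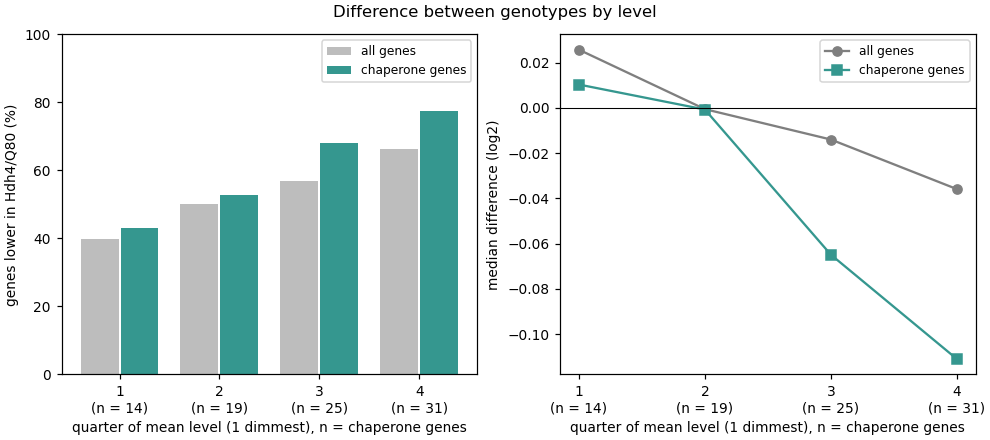
Share of genes with a lower mean in Hdh4/Q80 mice (left, percent) and median difference (right, log2) in 4 equal bins of mean probe set brightness, for all 8251 genes (grey) and the 89 chaperone genes (green, n under each bin). The share below 0 grows with brightness, from 39.8% to 66.3% for all genes and from 42.9% to 77.4% for chaperones, while the median difference runs downwards, from 0.03 to -0.04 and from 0.01 to -0.11.

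Mice of 1 genotype differed among themselves. Wild-type mouse 4 had the highest level of all 6 mice for 34 of the 89 genes (38.2%, against 17.5% of all genes), and Hdh4/Q80 mouse 8 the lowest for 48 (53.9%, against 36% of all genes). Mouse 8 was also the highest for 18 (20.2%, against 26.5% of all genes). Averaged over the 89 genes, wild-type mouse 4 deviated from the 6-mouse mean by 0.08 and Hdh4/Q80 mouse 8 by -0.10, while the remaining 4 mice lay between -0.004 and 0.02. The array of Hdh4/Q80 mouse 8 stood apart in general: it correlated with the others at a mean r of 0.992, where the remaining 5 arrays gave 0.995 to 0.997. Its deviation differed by compartment, at -0.10 for cytosolic and nuclear, -0.17 for mitochondrial and -0.03 for ER genes. Wild-type mouse 4 was high in all 3, at 0.07, 0.10 and 0.11. Leaving out both mice left 2 animals per genotype.

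**Figure D3:**
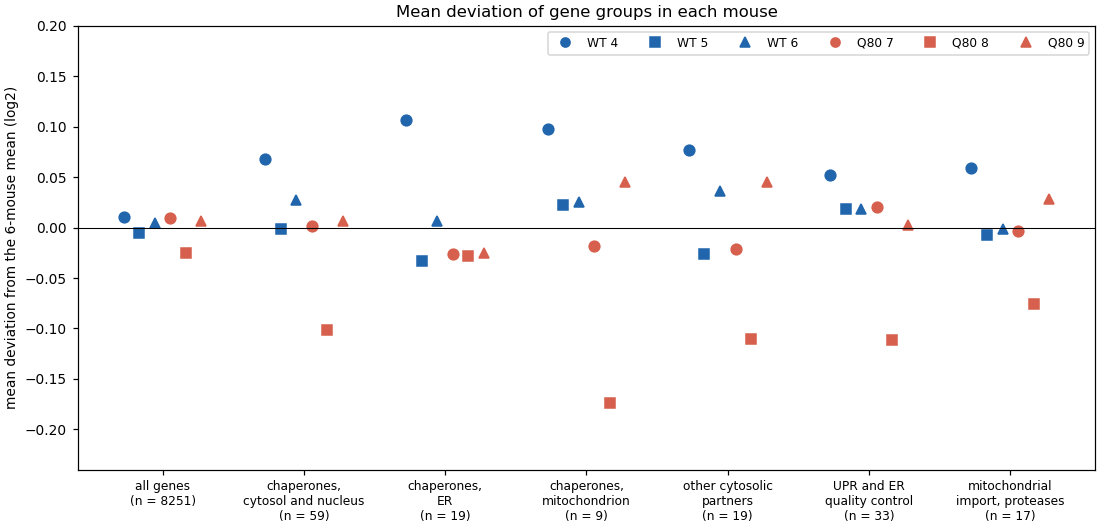
Mean deviation of each mouse from the 6-mouse mean (log2), averaged over the genes of a group, for all genes, the 3 chaperone compartments and 3 groups of partner genes (blue, wild type; red, Hdh4/Q80; n genes under each group). Wild-type mouse 4 is the highest point in each group, and Hdh4/Q80 mouse 8 the lowest in each group except the ER chaperones, where wild-type mouse 5 (-0.03) lies lowest.

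Markers of other cells were read on the same arrays. Of 9 markers of striatal projection neurons 5 were measured, and 4 of them (Penk, Tac1, Drd2 and Pdyn) had mean levels above those of at least 77.4% of probe sets; their summed level ran from 13.23 to 13.49 in wild type and from 13.28 to 13.43 in mutants. Microglial markers were lower in mutants for 6 of 6 genes (summed level 11.73 to 11.80 in wild type, 11.31 to 11.62 in mutants, with no overlap in 4 of the 6, against 5.22% of all genes) and blood markers for 2 of 2 (11.64 to 11.88 and 11.31 to 11.46). Oligodendrocyte markers were lower for 4 of 5 (13.50 to 13.58 and 13.38 to 13.47) and astrocyte markers for 3 of 3 (10.19 to 10.53 and 10.005 to 10.29). Choroid plexus markers varied most among mice (9.04 to 10.56 and 9.13 to 11.48, 3 of 3 higher), followed by cortical neuron markers (6.47 to 8.17 and 6.41 to 7.22, 1 of 2 lower). Endothelial markers gave 10.14 to 10.29 and 10.15 to 10.19, with 1 of 5 lower. Hdh4/Q80 mouse 8 was the lowest mouse for microglia (11.31), astrocytes (10.005), blood (11.31), cortical neurons (6.41) and, on average, chaperones. For choroid plexus it was high (10.87), under mouse 9 only. A summed level follows its brightest marker. Of the blood markers Hba-a1 differed by -0.43 and Alas2 by -0.01, and of the cortical markers Tbr1 by -0.38 and Neurod6 by 0.12. The part of these cells in the chaperone values was not tested.

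Among the cytosolic Hsp70 and Hsp110 proteins, 8 of 9 genes lay below 0 (53.3% of all genes). Wild-type mouse 4 was the highest mouse for 6 of the 9 (17.5% of all genes). Hspa8, the constitutive Hsp70 that also uncoats clathrin vesicles at synapses, read 10.44, 9.93 and 10.16 in wild type and 10.07, 10.07 and 10.12 in Hdh4/Q80 mice. Its difference was -0.09 ± 0.113 (SE), and it turned to 0.05 without wild-type mouse 4. Hsph1, the inducible Hsp110 whose window holds a heat shock element after the start site, read 10.45, 10.05 and 10.13 against 10.05, 9.77 and 10.30. The genotypes overlapped in both genes, and the extremes were wild-type mouse 4 or 5 for Hspa8 and wild-type mouse 4 and Hdh4/Q80 mouse 8 for Hsph1. Hspa4, another Hsp110 protein, read 10.13, 9.85 and 10.11 against 9.75, 9.59 and 10.15, with Hdh4/Q80 mouse 9 the highest of all. Hspa4l, its close relative, was the family member whose groups did not overlap: 8.83, 8.76 and 8.81 in wild type against 8.73, 8.47 and 8.68 in mutants, which gave -0.18 (95% interval -0.36 to 0.004). A dim probe set of Hspa4 stood the other way, at 5.90, 5.92 and 5.96 against 5.97, 6.05 and 6.09, a difference of 0.11.

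Hspa2 is an Hsp70 best known for its role in male germ cells, and was read here by a dim probe set. It had the smallest p of the 89 chaperone genes on their brightest probe sets. It read 6.41, 6.39 and 6.40 in wild type (6.40 ± 0.0116, mean ± SD, n = 3 mice) and 6.32, 5.95 and 5.99 in Hdh4/Q80 mice (6.09 ± 0.204, n = 3). The wild types were nearly equal, Hdh4/Q80 mouse 7 lay close under them and mice 8 and 9 clearly lower. The difference was -0.32 ± 0.0984 (SE; limma unadjusted p = 0.00953, adjusted p = 0.857), and it ran from -0.43 to -0.25 with 1 mouse left out. With array weights, which counted Hdh4/Q80 mouse 7 at 6.19 and mouse 8 at 0.228, it was -0.11. The stress-inducible Hsp70 genes Hspa1a and Hspa1b are near-identical copies whose transcripts these probe sets may not separate. Hspa1a read 7.39, 7.19 and 7.28 in wild type and 7.32, 7.04 and 7.57 in mutants, so that Hdh4/Q80 mice held both the lowest and the highest value. Hspa1b read 5.78, 5.54 and 5.69 against 5.46, 5.48 and 5.61, a difference of -0.15 ± 0.0829 (SE) on a dim probe set.

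Hsp90aa1, the inducible cytosolic Hsp90 that holds kinases and steroid receptors, read 11.57, 11.26 and 11.46 in wild type and 11.39, 11.15 and 11.36 in Hdh4/Q80 mice. Wild-type mouse 4 was again the highest and Hdh4/Q80 mouse 8 the lowest, and the groups overlapped (difference -0.13 ± 0.0986, SE). Stip1, St13, Stub1 and Hspbp1, cochaperones outside the J-domain, BAG and isomerase families, were 4 of 4 below 0. Stip1, the Hop adaptor that bridges Hsp70 and Hsp90, read 7.90, 7.60 and 7.62 against 7.51, 7.33 and 7.59. The groups only just failed to touch, with wild-type mouse 5 at 7.60 and Hdh4/Q80 mouse 9 at 7.59. The Stip1 difference of -0.23 ± 0.102 (SE; unadjusted p = 0.0493, adjusted p = 0.857, limma) became -0.13 without wild-type mouse 4 and -0.06 without both mice 4 and 8. St13, the Hip protein that stabilises the ADP-bound form of Hsp70, read 7.98, 7.94 and 7.90 in wild type and 7.86, 7.75 and 7.76 in mutants, with no overlap and a difference of -0.15 ± 0.0686 (SE). Its second probe set differed by -0.27. Stub1, the CHIP ubiquitin ligase that marks chaperone clients for the proteasome, read 9.42, 9.42 and 9.32 against 9.29, 8.96 and 9.34; only Hdh4/Q80 mouse 8 stood well below the others.

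J-domain proteins formed the largest family, with 19 of 27 genes below 0 (53.3% of all genes) and 3 of them lower at an unadjusted p under 0.05 (2.13% of all genes). Dnaja1, a main cytosolic partner of Hspa8, read 10.65, 10.37 and 10.53 in wild type and 10.33, 10.16 and 10.45 in Hdh4/Q80 mice. Dnajb1, the heat-inducible Hsp40, read 7.13, 7.26 and 7.19 against 7.26, 6.94 and 7.13. The Dnajb1 values overlapped fully apart from Hdh4/Q80 mouse 8, without which the difference of -0.08 became 0.0005. Dnajb5, another Hsp40-type protein, read 7.96, 8.03 and 8.10 against 8.00, 7.79 and 7.69, a difference of -0.21 ± 0.0894 (SE; unadjusted p = 0.045, adjusted p = 0.857, limma) with Hdh4/Q80 mouse 7 inside the wild-type range. Dnajb6 and Dnajb2, J proteins known to suppress polyglutamine aggregation, differed by -0.05 and -0.19, both with overlapping groups; Dnajb6 differed by -0.01 on its other probe set. Dnajc5, the cysteine string protein of synaptic vesicles, read 8.39, 8.48 and 8.47 in wild type and 8.57, 8.07 and 8.11 in mutants. Hdh4/Q80 mouse 7 was there the highest of all 6 mice while the other two were the lowest. Dnajb13, a sperm flagellar protein, gave probe sets of opposite sign, 0.09 and -0.36, the second with Hdh4/Q80 mouse 8 at 6.42 and the other 5 mice between 7.11 and 7.31.

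**Figure D4:**
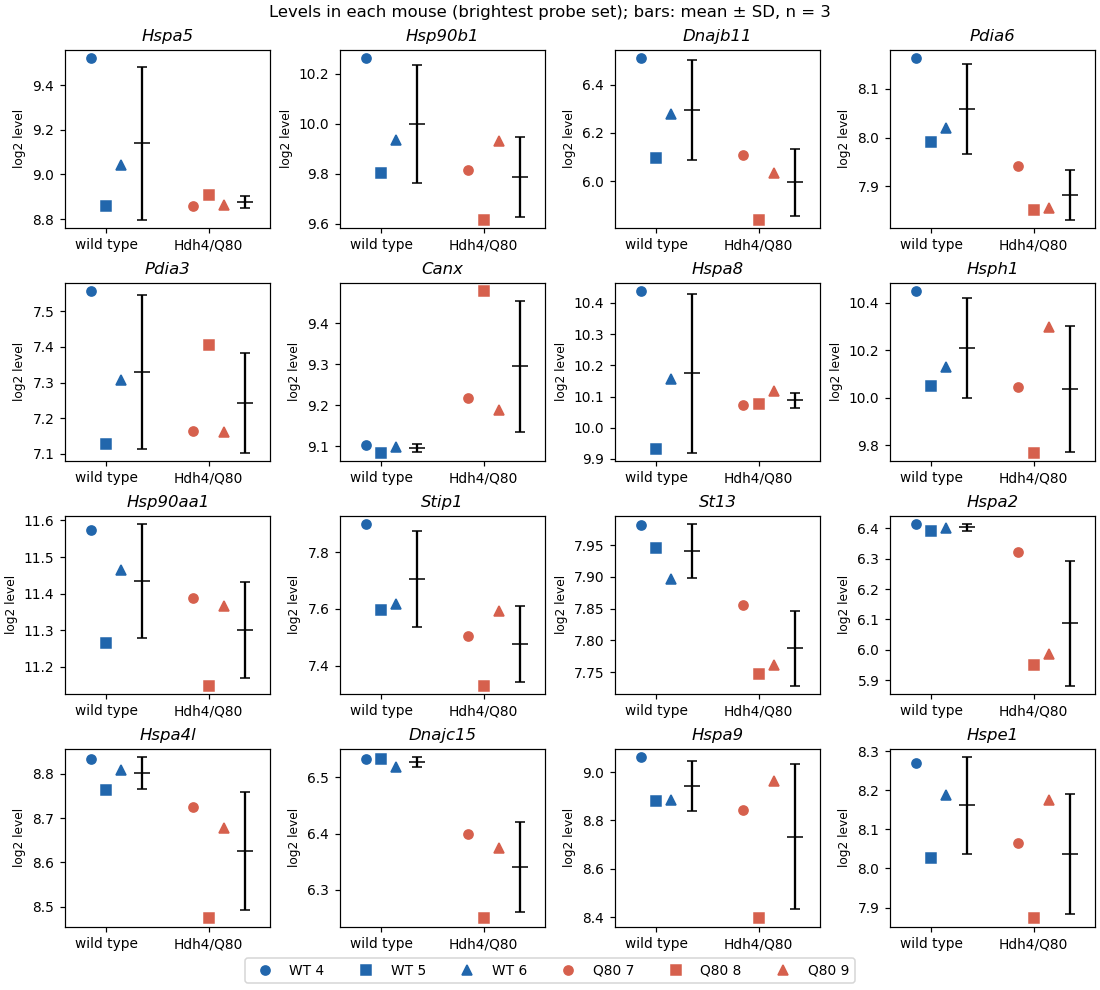
Log2 levels of 16 chaperone genes in each mouse on the brightest probe set (blue, wild type; red, Hdh4/Q80; circle, square and triangle for mice 4, 5 and 6 or 7, 8 and 9), with the mean ± SD of each genotype (n = 3). Each panel has its own axis, which does not start at 0. In Hspa5, Hspa8 and Pdia3 wild-type mouse 4 stands above the rest, whereas in Dnajc15, Hspa2 and Canx the wild types lie close together. The mutants lie outside their range, but mouse 7 of Hspa2 and mice 7 and 9 of Canx lie near it.

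Heat shock factors, small heat shock proteins and BAG cochaperones had 5 of 11 genes below 0. Hsf2 and Hsf4, transcription factors of the heat shock family, differed by 0.02 and 0.04. Hspb1, a small heat shock protein that binds unfolded clients without ATP, read 4.19, 3.99 and 4.07 in wild type and 4.13, 3.97 and 4.22 in mutants on a dim probe set. Cryab, alpha-B-crystallin, which oligodendrocytes express strongly, read 7.56, 7.50 and 7.54 against 7.50, 7.55 and 7.51 (difference -0.02). On its other probe set Cryab read 6.38, 6.54 and 6.46 against 6.30, 6.24 and 6.53 (difference -0.11 ± 0.0889, SE). Neither gene separated the genotypes. Hspb8, which works with Bag3 to send misfolded proteins to autophagy, did: 7.95, 7.93 and 7.94 in wild type against 7.97, 8.13 and 8.01 in mutants, a difference of 0.10 ± 0.0707 (SE; adjusted p = 0.857, limma) that was -0.005 on a dimmer probe set. Its partner Bag3 lay on the other side of 0, with 7.14, 7.25 and 7.12 against 7.14, 7.02 and 6.97. The Bag3 difference was -0.12 ± 0.0755 (SE), or -0.03 with array weights, and -0.27 on a dim second probe set with overlapping groups. Bag1, a nucleotide exchange factor of Hsp70, read 7.85, 7.78 and 7.98 against 7.83, 7.66 and 7.85. Bag2, an inhibitor of Stub1, had one of the smaller p-values on the higher side on a second probe set (7.93, 7.82 and 7.83 against 7.93, 8.21 and 7.98, difference 0.18), while its brightest probe set differed by 0.02. All 4 probe sets of Bag6 were below 0, from -0.18 to -0.11. Hspb11, now also known as an intraflagellar transport protein, had non-overlapping groups at -0.13.

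The CCT chaperonin, a ring that folds actin and tubulin, had 4 of 9 genes below 0 and a median of 0.01. Tcp1, its first named subunit, read 7.81, 7.62 and 7.75 in wild type and 7.73, 7.75 and 7.74 in mutants. Cct2 was the member with the smallest p on the higher side, at 7.36, 7.06 and 7.11 against 7.24, 7.49 and 7.24. Cct3 showed how far probe sets of a gene can part: its brightest differed by 0.03, the others by -0.28 and -0.15. Hdh4/Q80 mouse 8 was the highest mouse on the first (8.70) and the lowest on the other 2 (7.60 and 7.38). The peptidyl-prolyl isomerases come next. Fkbp5, an Hsp90 cochaperone induced by glucocorticoids, read 8.20, 8.27 and 8.15 against 8.12, 8.24 and 8.30, a difference of 0.02 ± 0.0753 (SE). Fkbp4, which acts with Hsp90 on steroid receptors, read 9.50, 9.23 and 9.39 against 9.19, 9.05 and 9.37, and its second probe set lay on the same side (-0.17 and -0.20). Ppid, the cyclophilin of the Hsp90 complex, differed by -0.19 ± 0.0995 (SE). Of all 11 FK506-binding proteins 4 were below 0, and of the 6 cyclophilins 4.

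In the ER, Hspa5, Hsp90b1, Dnajb11, Pdia3, Pdia4 and Pdia6 were the 6 of 19 genes highest in wild-type mouse 4 (31.6%, against 17.5% of all genes). Hdh4/Q80 mouse 8 was the highest mouse for another 6 (31.6%, against 26.5% of all genes), which were Canx, Calr, Pdia5, Ppib, Fkbp7 and Fkbp11. Hspa5, the ER Hsp70 also called BiP, read 9.52, 8.86 and 9.04 in wild type (9.14 ± 0.343, mean ± SD, n = 3) and 8.86, 8.91 and 8.86 in Hdh4/Q80 mice (8.88 ± 0.0263, n = 3). Wild-type mouse 5 was no higher than the mutants. The difference of -0.26 ± 0.142 (SE) had a 95% interval of -0.58 to 0.05 and became -0.07 without wild-type mouse 4. Hsp90b1, the ER Hsp90 (GRP94), read 10.26, 9.80 and 9.93 against 9.81, 9.62 and 9.93. Its difference of -0.21 ± 0.123 (SE) became -0.08 without wild-type mouse 4 and 0.004 without both mice 4 and 8. Dnajb11, a J protein that delivers clients to Hspa5, read 6.51, 6.10 and 6.28 against 6.11, 5.84 and 6.03, a difference of -0.30 ± 0.112 (SE; unadjusted p = 0.023, adjusted p = 0.857, limma). Here too wild-type mouse 4 was highest and Hdh4/Q80 mouse 8 lowest, and the difference was -0.12 without both.

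Of the 4 protein disulfide isomerases with a Pdia symbol 3 lay below 0. P4hb, a disulfide isomerase outside the symbol rule, differed by 0.003 on a brighter probe set. Pdia6, whose promoter is shown above, lay lower in all 3 mutants on 2 of its 3 probe sets. The brightest read 8.16, 7.99 and 8.02 in wild type (8.06 ± 0.0924, mean ± SD, n = 3) and 7.94, 7.85 and 7.86 in Hdh4/Q80 mice (7.88 ± 0.0514, n = 3), a difference of -0.18 ± 0.0743 (SE; unadjusted p = 0.0404, adjusted p = 0.857, limma). With 1 mouse left out it ran from -0.21 to -0.12. The second read 7.48, 7.33 and 7.26 against 7.11, 6.88 and 6.94, a difference of -0.38 ± 0.088 (SE) with the smallest p of all 124 probe sets (unadjusted p = 0.0017, adjusted p = 0.857, limma). The dimmest of the 3 differed by -0.02. Pdia4, a larger disulfide isomerase, read 8.45, 8.32 and 8.31 against 8.26, 8.31 and 8.18, again without overlap, though wild-type mouse 6 and Hdh4/Q80 mouse 8 are equal as rounded (difference -0.11 ± 0.0734, SE). Pdia3, the isomerase that works with calnexin and calreticulin on glycoproteins, read 7.56, 7.13 and 7.31 against 7.16, 7.41 and 7.16 and overlapped fully; its difference of -0.09 turned to 0.03 without wild-type mouse 4. Pdia5 differed by 0.06 on a dim probe set.

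The 2 lectin chaperones differed by 0.20 (Canx) and 0.02 (Calr) on their brightest probe sets. Canx, calnexin, the membrane lectin that holds newly made glycoproteins, read 9.10, 9.08 and 9.10 in wild type (9.10 ± 0.01, n = 3) and 9.22, 9.48 and 9.19 in Hdh4/Q80 mice (9.30 ± 0.16, n = 3). All 3 mutants exceeded all 3 wild types, with mouse 8 the highest by far. The difference was 0.20 ± 0.0865 (SE; unadjusted p = 0.044, adjusted p = 0.857, limma), and it was 0.11 without Hdh4/Q80 mouse 8. Its dimmer probe set read 6.62, 6.57 and 6.66 against 6.55, 6.43 and 6.85, a difference of -0.003 in which mouse 8 was the lowest instead. Calr, calreticulin, the soluble counterpart, was read by a dim probe set at 4.75, 4.51 and 4.66 against 4.59, 4.75 and 4.65. The sign of its difference turned under quantile normalization, cyclic loess and array weights. Among the remaining ER J proteins, Dnajc10, a J protein with disulfide reductase activity, read 8.61, 8.66 and 8.48 against 8.57, 8.79 and 8.87. Dnajb9, a J protein induced by ER stress, gave -0.25 on a probe set that read 6.63, 6.78 and 6.73 against 6.83, 6.03 and 6.54, and 0.17 on one that read 6.52, 6.20 and 6.37 against 6.32, 6.72 and 6.56. Hdh4/Q80 mouse 8 was the lowest mouse on the one and the highest on the other. Dnajc3, the p58IPK inhibitor of the ER stress kinase, likewise differed by -0.22 on its brightest probe set (6.55, 6.69 and 6.87 against 6.64, 6.38 and 6.42) and by 0.11 on the next (6.43, 6.36 and 6.50 against 6.49, 6.38 and 6.74). The 6 genes with an ER stress response element had differences from -0.26 (Hspa5) to 0.20 (Canx), 4 of them below 0.

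**Figure D5:**
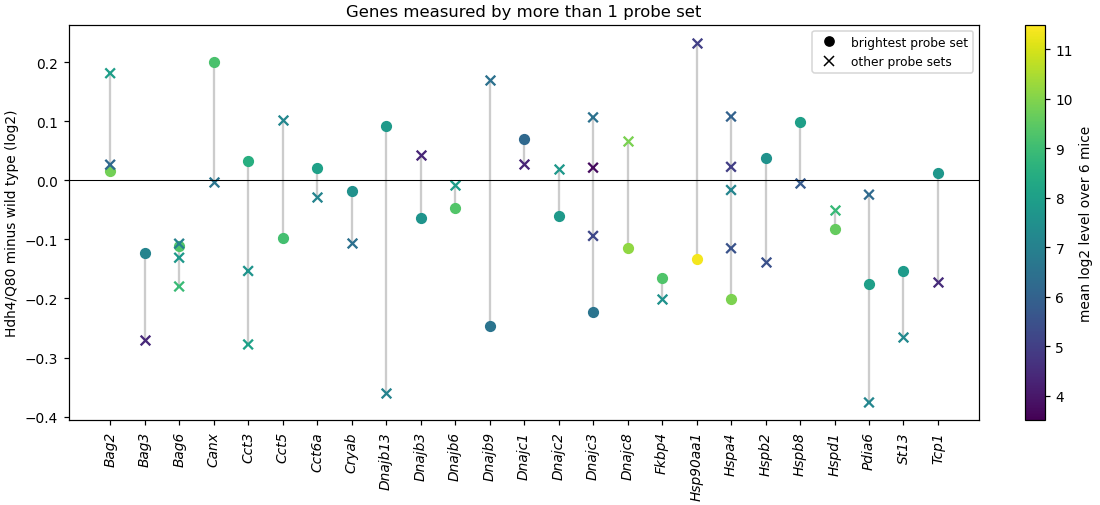
Difference between Hdh4/Q80 and wild type (log2) on each probe set of the 25 chaperone genes measured more than once (circle, brightest probe set; cross, others; colour, mean log2 level over 6 mice). In 10 of the 25 all probe sets lie on the same side of 0, among them Pdia6, St13, Bag6 and Fkbp4. Among probe sets with a mean level of at least 6, those of Canx, Cct3, Dnajb9, Dnajb13 and Dnajc3 differ in sign and by over 0.2.

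In mitochondria, 8 of 9 genes lay below 0 (53.3% of all genes) and Hdh4/Q80 mouse 8 was the lowest mouse for 7 of the 9 (36% of all genes). Hspa9, mortalin, the matrix Hsp70 that pulls imported proteins through the membrane, read 9.06, 8.88 and 8.88 in wild type and 8.84, 8.39 and 8.96 in mutants. Its difference of -0.21 ± 0.133 (SE) became -0.04 without mouse 8. Hspd1, the Hsp60 chaperonin, read 9.68, 9.60 and 9.64 against 9.61, 9.43 and 9.63, and its lid Hspe1, Hsp10, read 8.27, 8.03 and 8.19 against 8.06, 7.87 and 8.17. These neighbours, whose promoter region with its heat shock elements is shown above, had the same highest and lowest mouse. Without both wild-type mouse 4 and Hdh4/Q80 mouse 8 their differences were 0.001 and 0.01. Dnaja3, a matrix J protein, read 8.81, 8.78 and 8.81 against 8.83, 8.60 and 8.94. Dnajc15, a J protein of the inner membrane import motor, was the gene of this group whose genotypes did not overlap. It read 6.53, 6.53 and 6.52 in wild type (6.53 ± 0.00875, mean ± SD, n = 3) and 6.40, 6.25 and 6.37 in Hdh4/Q80 mice (6.34 ± 0.0803, n = 3). The difference was -0.19 ± 0.0699 (SE; unadjusted p = 0.0236, adjusted p = 0.857, limma) and ran from -0.22 to -0.14 with 1 mouse left out. Its probe set carries a suffix that marks probes shared with related transcripts.

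Genes that work beside the chaperones but fall outside the symbol rule had the same mice at the ends of their averages. Of 33 measured genes of the unfolded protein response and ER quality control 24 were below 0 (median -0.06), against 53.3% of all genes. At an unadjusted p under 0.05, 0 were lower or higher, where 2.13% and 2.17% of all genes were. Wild-type mouse 4 was highest for 11 of them (33.3%, against 17.5% of all genes). Hdh4/Q80 mouse 8 was lowest for 19 (57.6%, against 36% of all genes). The ER stress sensor Atf6 read 7.47, 7.14 and 7.15 in wild type and 7.05, 7.01 and 7.30 in mutants. Creld2, an ER-stress-induced protein, read 7.20, 6.86 and 6.85 against 6.88, 6.58 and 6.82. Other genes of this list differed less or in the other direction: Xbp1 by 0.01, Ddit3 by -0.03, Ppp1r15a by -0.03, Trib3 by 0.08 and Herpud1 by -0.07. Atf4 differed by -0.14, and Manf, with the smallest p of the list, by -0.20 (limma unadjusted p = 0.057). Ero1a, the oxidase that recharges disulfide isomerases, was the list's gene with non-overlapping groups, at 9.47, 9.50 and 9.47 against 9.56, 9.68 and 9.62 (difference 0.14 ± 0.0674, SE). Mutants lay entirely above wild types for 5.87% of all genes. Of 19 other cytosolic partners 13 were below 0 (median -0.04), and in 5 of them the mutants lay entirely below the wild types (5.22% of all genes). The smallest p among these was that of Sugt1, an Hsp90 cochaperone, at 8.44, 8.23 and 8.38 against 8.18, 7.85 and 8.15 (difference -0.29 ± 0.0999, SE; unadjusted p = 0.0167, adjusted p = 0.857, limma). Cdc37, which brings kinases to Hsp90, read 9.70, 9.55 and 9.61 against 9.51, 9.37 and 9.52. Of 17 genes of mitochondrial import and proteolysis 12 were below 0 (median -0.06), and the protease Htra2 had the smallest p, on the higher side (10.38, 10.40 and 10.23 against 10.45, 10.84 and 10.64; difference 0.31 ± 0.101, SE; unadjusted p = 0.0125, adjusted p = 0.857, limma). None of these genes passed the adjusted test. The probe sets of Ero1a and Sugt1 carry the same suffix as that of Dnajc15. Other suffixes are carried by those of Htra2 and P4hb and by the second probe set of Pdia6. These are examples, as 30 of the 124 chaperone probe sets carry a suffix. The brightest of Cct3, Bag2, Dnajc3, Cryab and Fkbp4 do, as do the second of Dnajb13 and the dim one of Hspa4 described above. In Cct3, Dnajb13 and Dnajc3 a probe set with a suffix and one without differed in sign.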

How the data were processed

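Striatal RNA of 6 mice was biotin-labelled with an Affymetrix kit, per the labels' protocols, and each mouse had its own array. The deposited values are log2 levels per probe set, for which the submitters' processing notes name RMA and the affy package; the authors' versions, and the set of arrays processed together, were not stated in what was used here. RMA equalises intensity distributions between arrays, so a global change in RNA amount cannot be seen, and it shrinks differences of dim probe sets. Without scanner files no probe set could be called absent, and 3 arrays per group limit the precision.

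Of 12488 probe sets 66 controls were left out. A platform annotation gave 10833 probe sets 1 gene symbol, 396 several and 1193 none; only the first kind was named, and all 89 member genes matched the RefSeq table by gene identifier with the same symbol. A gene was represented by its probe set of highest mean. Limma 3.58.1 in R 4.3.3 (lmFit, eBayes; 4 residual and 5.81 prior degrees of freedom) compared Hdh4/Q80 with wild type on all 12422 probe sets, with Benjamini-Hochberg adjustment and a threshold of 0.05. Every p-value is limma's. The fit was tested on simulated data. Counts and medians of members stand beside those of all genes, without a set test. Full per-mouse values are given for a panel of 32 genes (29 measured), the 6 member probe sets of smallest p in each direction, and genes whose probe sets with a mean of at least 6 differ in sign and by over 0.2. Dnajb2, Dnajb6, Dnajc5, Hspa4l, Hspb8, Hspb11, Bag6, Hsf2, Hsf4, Pdia5 and Ppid, and the partner genes, were picked after their values were seen. The members and lists were chosen with earlier results of these data known. Promoter windows came from RefSeq (GRCm38.p6). Compartments were assigned from textbook knowledge. Alternatives were other normalizations, filters, moderation, weights, probe set rules and leaving out mice.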

Additional observations from a re-analysis of the deposited data

How the results depend on the processing

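No paired analysis was made, because the labels do not say which mice share a litter. The replicate numbers (4 to 6 against 7 to 9) match no mice across the groups. Litter was therefore not part of the fit, and its effect was not tested. No chaperone probe set passed the adjusted threshold when any 1 mouse was left out. The 6 lower and 1 higher genes at an unadjusted p under 0.05 became 3 lower without the dimmest 40% of probe sets. That filter left out Hspa2, Dnajb11 and Dnajc15. With array weights there were 11 lower and 4 higher. Higher genes numbered 0 with trended and robust moderation and 0 when probe sets of a gene were averaged. The share of all genes at these settings is not given here, so these counts cannot be read against it. Array weights counted Hdh4/Q80 mouse 7 at 6.19, mouse 8 at 0.228 and mouse 9 at 0.405. With 1 mouse left out the counts ran from 2 (without Hdh4/Q80 mouse 8) to 15 (without mouse 9) lower and from 0 to 2 higher. The shares of all genes for these are given above. The ER median of 0.00665 became -0.0979 without the dimmest 40%, -0.0457 with array weights, -0.0257 under quantile normalization, -0.0229 under cyclic loess and -0.0428 to 0.0440 with 1 mouse left out. Leaving out both wild-type mouse 4 and Hdh4/Q80 mouse 8 was chosen after seeing the data.

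The sign turned under quantile normalization for Hspb1 -0.00325, Calr -0.00860 and Dnaja3 0.00436, and under cyclic loess for Calr -0.00296 and Dnaja3 0.0192. Array weights turned Dnajb1 to 0.0400, Fkbp5 to -0.0590, Calr to -0.0367 and Dnaja3 to 0.0233, and the mean of probe sets Hsp90aa1 to 0.0496 and Tcp1 to -0.0798. Signs also turned with mice left out, either 1 mouse or both wild-type mouse 4 and Hdh4/Q80 mouse 8. For some genes leaving out 1 mouse was enough. Their ranges over these settings were -0.106 to 0.214 for Hspa1a, -0.209 to 0.0517 for Hspa8, -0.157 to 0.000478 for Dnajb1 and -0.0357 to 0.148 for Hspb1. They were -0.0396 to 0.0526 for Tcp1, -0.0252 to 0.0651 for Fkbp5, -0.0428 to 0.0772 for Calr, -0.188 to 0.0266 for Pdia3 and -0.0888 to 0.0897 for Dnaja3. Other signs held when any 1 mouse was left out and turned only without both mice 4 and 8. Those ranges were -0.302 to 0.0828 for Hsph1, -0.219 to 0.0125 for Hsp90aa1 and -0.312 to 0.00420 for Hsp90b1. They were -0.118 to 0.00145 for Hspd1, -0.194 to 0.0123 for Hspe1 and -0.325 to 0.0192 for Hspa9. Array weights also moved, with no change of sign, Hsp90aa1 to -0.0480, St13 to -0.0832, Stub1 to -0.0917, Hspa9 to -0.0874, Dnajc10 to 0.0344 and Cct2 to 0.0974. The cause was not tested.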
